A study of Mus musculus with 12 samples.

Results

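Dbh, Adam11, Wdr64 and C1qtnf1 are 4 protein-coding genes whose RNA was nearly lost in Min6 cells given AS1842856 and loperamide together. They are 4 of the 55487 genes in the deposited count table. They were picked by name for large falls with both compounds against DMSO, so the values of that comparison chose them and are given here as a description, with no test. All 4 passed the filter on low counts that left 16808 genes for testing, and Dbh, Adam11 and Wdr64 passed it only through groups other than the combined one. In the combined group the mean level of each gene was between 1.65% and 3.71% of its DMSO mean. C1qtnf1 still had counts in every combined library, whereas Dbh had none in 2 of the 3.

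Min6 is a mouse beta cell line from an insulinoma of animals that carried a viral T antigen in their insulin-producing cells. Its cells were kept for 48 h in the solvent DMSO, in 1 µM AS1842856, in 5 µM loperamide or in both compounds. AS1842856 inhibits the transcription factor FoxO1 and is called FoxOi here, and loperamide is an opioid receptor agonist used against diarrhoea. Each of the 4 groups has 3 mRNA libraries numbered 1 to 3, all of them from the same line, and the labels do not say whether they are separate cultures. The p-values below therefore measure the spread between these libraries, which may be technical.

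Total counts ran from 10640485 to 19499216 per library. All 9 beta cell markers looked for were present in all 4 groups at 1 CPM or more. CPM means counts per 1000000 of a library size scaled by TMM, a normalization by a trimmed mean of the log ratios of genes between libraries. The summed marker level was 59524 to 83086 CPM in DMSO, 33025 to 37704 with FoxOi, 60982 to 61610 with loperamide and 25412 to 29833 with both. Most of the sum was Ins2 and Iapp, with means of 46622 and 18254 CPM in DMSO, and the other markers moved by different amounts. From DMSO to FoxOi the mean of Mafa went from 811 to 86.5 CPM, that of Nkx2-2 from 139 to 30.8 and that of Slc30a8 from 390 to 318. With loperamide Nkx2-2 had a mean of 184 CPM. The part of the beta cell markers in the results below was not tested.

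The 4 genes belong to different families. Dbh encodes dopamine beta-hydroxylase, a copper enzyme of secretory granules that uses ascorbate to turn dopamine into noradrenaline, and it is best known as a marker of sympathetic neurons and adrenal chromaffin cells. Beta cells are known to make dopamine, which restrains insulin secretion. Adam11 encodes a membrane protein of the ADAM (a disintegrin and metalloprotease) family that lacks protease activity and is known from neurons, where its relatives ADAM22 and ADAM23 bind the secreted LGI proteins. C1qtnf1 encodes CTRP1, a secreted protein related to adiponectin with a C1q domain. Wdr64 encodes a protein with WD repeats, a fold on which other proteins assemble.

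Dbh (ENSMUSG00000000889, GRCm38 chromosome 2, 27165233 to 27183200, plus strand) had the largest fitted fall of the 4 with both compounds, an order that depended on how low counts were treated. With a prior count of 2 the fall was -4.36 for Dbh and -4.60 for C1qtnf1, on log2(FPKM + 0.1) -3.64 and -4.45, and on log2(FPKM + 1) -1.23 and -3.09. Its DMSO libraries held 81, 40 and 47 counts, or 5.18, 2.49 and 3.45 CPM in replicates 1, 2 and 3. With FoxOi the counts were 10, 8 and 9 (0.581, 0.439 and 0.461 CPM). Loperamide left 13, 10 and 14 counts (1.21, 0.760 and 1.01 CPM). With both compounds there were 0, 0 and 3 counts, so all the Dbh reads of the combined group came from replicate 3, at 0.183 CPM. The 4 groups did not overlap, and their order was DMSO, loperamide, FoxOi, both.

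Mean Dbh levels were 3.71 ± 1.36 CPM in DMSO, 0.494 ± 0.0762 with FoxOi, 0.993 ± 0.226 with loperamide and 0.061 ± 0.106 with both (SD, n = 3). The log2 fold change against DMSO was -2.89 ± 0.38 for FoxOi, -1.91 ± 0.37 for loperamide and -5.79 ± 0.56 for both (SE). With only 3 counts left, the last value depends on the prior count of the fit. From the counts alone, the combined level was 1.59% of DMSO, with an exact 95% interval of 0.326% to 4.74% that covers counting error only. Without combined replicate 3 the group had no Dbh count, and the DMSO mean was at least 42.5-fold above the limit that 3 counts over the other 2 libraries allow. A count of 0 allowed up to 0.163 CPM in combined replicate 1 and up to 0.188 CPM in replicate 2.

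The start of Dbh is the only one of the 4 held by the RefSeq table of gene starts used here (GRCm38.p6). Its 300-base window, from 250 bases before to 50 bases after the RefSeq start, spans chr2:27165257-27165556 on the plus strand and lies inside the gene as the files place it. The following 30 bases are shown because they hold both kinds of motif found in the window. They span chr2:27165337-27165366, from base -170 to base -141 relative to that start, with the matches in capitals.
Dbh: atgtcCATGTGtcattagtgCCAATtaggg
The capitals mark an E-box (CANNTG) at -165 and a CCAAT box (CCAAT) at -150.

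A second E-box match lies at -73. Both strands were searched, and 72.3% of all 32851 windows of this length held an E-box while 37.4% held a CCAAT box. The forkhead motif GTAAACA, the motif family bound by FoxO proteins, had no match in the Dbh window and was present in 3.65% of all windows. There was also no match to the CRE TGACGTCA (1.79% of windows), AP-1 TGANTCA (7.81%), ETS CCGGAAG (8.86%), the TATA box TATAAA (13.6%) or the ER stress element (0.119%). These matches describe letters in the window and show no binding.

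Adam11 (ENSMUSG00000020926, GRCm38 chromosome 11, 102761439 to 102780262, plus strand) had the widest DMSO spread of the 4 genes. Its DMSO counts were 85, 33 and 32, or 5.43, 2.05 and 2.35 CPM. FoxOi gave 35, 27 and 40 counts (2.03, 1.48 and 2.05 CPM). With loperamide there were 16, 10 and 8 counts (1.49, 0.760 and 0.575 CPM). The combination left 1, 3 and 1 counts (0.0544, 0.188 and 0.061 CPM), all below every other library. DMSO replicate 1 stood apart from the other DMSO libraries, and the highest FoxOi library was level with the lowest DMSO library.

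Mean Adam11 levels were 3.28 ± 1.87 CPM in DMSO, 1.85 ± 0.323 with FoxOi, 0.942 ± 0.484 with loperamide and 0.101 ± 0.075 with both (SD, n = 3). The DMSO and FoxOi means differed by less than the DMSO SD. The log2 fold change against DMSO was -0.82 ± 0.35 for FoxOi, -1.85 ± 0.42 for loperamide and -4.95 ± 0.59 for both (SE). Without DMSO replicate 1 the values for the single compounds became -0.28 and -1.29. By counts, the combined level was 2.98% of DMSO (exact 95% interval 0.953% to 7.10%). With FoxOi it was 56.1% of DMSO (exact 95% interval 43.2% to 72.6%). In each replicate number Adam11 was lower with FoxOi than in DMSO. The values were 2.03 against 5.43, 1.48 against 2.05 and 2.05 against 2.35 CPM in replicates 1, 2 and 3. Its means with loperamide and with both compounds were lower still.

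Wdr64 (ENSMUSG00000026523, GRCm38 chromosome 1, 175698593 to 175815734, plus strand) was low wherever loperamide was present. DMSO libraries held 99, 46 and 61 counts (6.33, 2.86 and 4.48 CPM). FoxOi libraries held 38, 45 and 43 counts (2.21, 2.47 and 2.20 CPM). Loperamide left 10, 2 and 8 counts (0.932, 0.152 and 0.575 CPM). The combined libraries had 4, 1 and 3 counts (0.218, 0.0625 and 0.183 CPM) and overlapped with loperamide alone, whose replicate 2 lay below 2 of them.

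Mean Wdr64 levels were 4.56 ± 1.73 CPM in DMSO, 2.29 ± 0.153 with FoxOi, 0.553 ± 0.390 with loperamide and 0.154 ± 0.0814 with both (SD, n = 3). Against DMSO the log2 fold change was -0.99 ± 0.30 for FoxOi, -3.08 ± 0.41 for loperamide and -4.79 ± 0.48 for both (SE). By counts, 3.47% of the DMSO level was left with both (exact 95% interval 1.48% to 6.96%). The order of the group means was DMSO, FoxOi, loperamide, both, and the last 2 groups did not separate.

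C1qtnf1 (ENSMUSG00000017446, GRCm38 chromosome 11, 118428203 to 118449963, plus strand) was the most abundant of the 4 genes and the one measured most precisely. Counts in DMSO were 482, 447 and 374 (30.8, 27.8 and 27.4 CPM). With FoxOi there were 162, 205 and 208 counts (9.41, 11.3 and 10.7 CPM). Under loperamide 33, 47 and 45 counts remained (3.08, 3.57 and 3.24 CPM). Both compounds left 19, 18 and 17 counts (1.03, 1.13 and 1.04 CPM). The 4 groups formed 4 separate steps with no overlap.

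Mean C1qtnf1 levels were 28.7 ± 1.85 CPM in DMSO, 10.4 ± 0.942 with FoxOi, 3.29 ± 0.253 with loperamide and 1.07 ± 0.0518 with both (SD, n = 3). The log2 fold change against DMSO was -1.46 ± 0.11 for FoxOi, -3.12 ± 0.13 for loperamide and -4.74 ± 0.14 for both (SE). By counts, 3.70% of the DMSO level was left with both (exact 95% interval 2.76% to 4.86%). In the deposited counts the gene shares its span with the antisense gene Gm11747, and Wdr64 holds the snRNA gene Gm25560. Both of these had 0 counts in all 12 libraries.

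**Figure D1:**
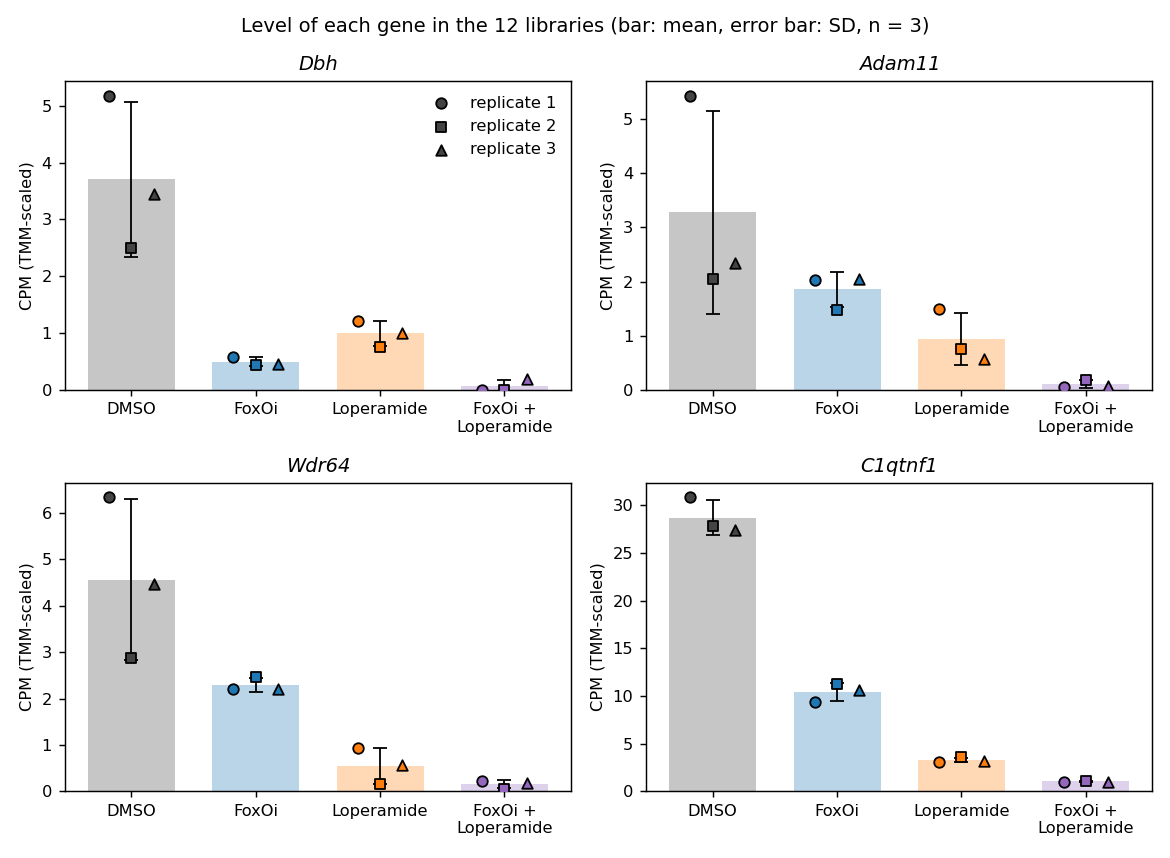
Levels of Dbh, Adam11, Wdr64 and C1qtnf1 in CPM (vertical axis, from 0) in each of the 12 libraries by group, with circles, squares and triangles for replicates 1, 2 and 3, bars for the group mean and error bars for the SD (n = 3). The combined group is lowest in every panel, from 0.061 CPM for Dbh to 1.07 CPM for C1qtnf1, and DMSO replicate 1 is the highest DMSO library in all 4.

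Levels can be compared between genes on the deposited FPKM (fragments per kilobase of gene, scaled by the authors for library size). In DMSO, C1qtnf1 had a mean of 11.1 ± 0.606 FPKM, above 60.8% of the tested genes. Dbh followed with 1.44 ± 0.517 FPKM, Wdr64 with 1.17 ± 0.437 and Adam11 with 0.637 ± 0.357 (SD, n = 3). The first of these stood clear of the other three, and Dbh and Wdr64 differed by less than their SDs. Dbh, Wdr64 and Adam11 lay above 21.0%, 18.6% and 12.04% of the tested genes, so these 3 were already low without either compound. With both compounds C1qtnf1 was at 0.411 ± 0.019 FPKM, still above 9.88% of tested genes. The other three had means of 0.0236 ± 0.0409 (Dbh), 0.0399 ± 0.0212 (Wdr64) and 0.0197 ± 0.0146 FPKM (Adam11), which did not differ beyond their SDs.

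Every library of a single compound was below every DMSO library for each of the 4 genes, although for Adam11 with FoxOi the gap was only between 2.05 and 2.05 CPM when rounded. For comparison, 24.0% of all tested genes were lower with FoxOi without overlap, and 20.8% were lower with loperamide without overlap. With both compounds 26.4% of tested genes were lower than in DMSO without overlap, but that comparison chose the 4 genes. A level above all other libraries in every DMSO library and below all others in every combined library was found for Dbh, Adam11 and C1qtnf1. It was found for 2.62% of all tested genes, and Wdr64 lacked it because of loperamide replicate 2. These comparisons share the DMSO or the combined libraries with the choice of genes, so nothing is read from them as a test.

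DMSO replicate 1 was the highest DMSO library for all 4 genes, which was the case for 44.6% of tested genes. It exceeded the mean of the other 2 DMSO libraries by a factor of 2.47 for Adam11, 1.74 for Dbh, 1.72 for Wdr64 and 1.12 for C1qtnf1. The falls of Dbh, Wdr64 and C1qtnf1 against DMSO kept their direction without it, and so did those of Adam11.

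A direct comparison of FoxOi with loperamide asks which compound left less of each RNA, and the levels compared come from libraries that did not choose the genes. Its SE and p-values rest on a filter, scaling and spread from all 12 libraries, which include those that did. They are therefore not fully independent of the choice. Wdr64 and C1qtnf1 were higher with FoxOi than with loperamide. For Wdr64 the log2 difference was 2.09 ± 0.44 (SE, edgeR adjusted p = 0.00113) and for C1qtnf1 it was 1.66 ± 0.13 (edgeR adjusted p = 1.22e-07), each with FoxOi higher in 3 of 3 replicate numbers and no overlap between groups (as for 29.6% of tested genes). These calls were made for 2 of the 4 genes, and 49.6% of all tested genes were called in this comparison, so the share of called genes among the 4 was near the background. With the replicate block all 4 were called, beside 62.7% of all tested genes.

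Dbh pointed the other way. It was lower with FoxOi in 3 of 3 replicate numbers and without overlap (as for 28% of tested genes), by -0.99 ± 0.48 on the log2 scale, but did not pass the threshold (edgeR adjusted p = 0.1001, unadjusted p = 0.0567). Blocking on the replicate number gave a difference of -1.0005 (edgeR adjusted p = 0.0313). Adam11 was higher with FoxOi in 3 of 3 replicate numbers, but its groups overlapped, and its difference of 1.02 ± 0.45 did not pass (edgeR adjusted p = 0.0702). The blocked value was 1.03 (edgeR adjusted p = 0.00748). Dbh was thus the only one of the 4 with its lower single-compound mean under FoxOi, and whether its difference departs from those of the other 3 was not tested.

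**Figure D2:**
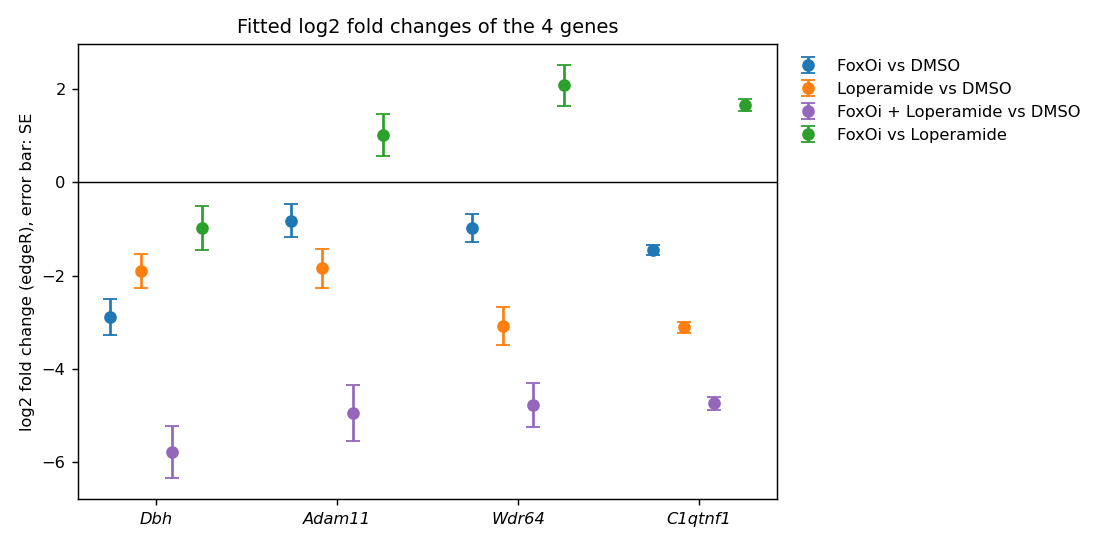
Fitted log2 fold changes (vertical axis) of the 4 genes (horizontal axis) for FoxOi, loperamide and both compounds against DMSO and for FoxOi against loperamide, with SE bars. All points against DMSO lie below 0, down to -5.79 for Dbh with both compounds, and FoxOi against loperamide is negative for Dbh (-0.99) and positive for the other three (1.02 to 2.09).

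Adding the second compound to the first lowered the level further in most pairs. From FoxOi to both, the log2 fold change was -2.90 ± 0.79 for Dbh, -4.13 ± 0.64 for Adam11, -3.80 ± 0.52 for Wdr64 and -3.29 ± 0.15 for C1qtnf1 (SE), with no overlap. From loperamide to both it was -3.88 ± 0.73 for Dbh, -3.11 ± 0.76 for Adam11, -1.71 ± 0.71 for Wdr64 and -1.63 ± 0.17 for C1qtnf1, and only Wdr64 overlapped. Without combined replicate 3 the Dbh values became -5.97 and -6.96. In the same comparisons 21.7% and 26.1% of tested genes were lower without overlap. The combined libraries also chose the genes, so these values carry no test.

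The combined change can be set beside the sum of the single-compound changes on the log2 scale. For C1qtnf1 the sum was -4.57 and the combined change -4.74, a difference of -0.17 ± 0.20 (SE). Wdr64 had a sum of -4.06 and a difference of -0.72 ± 0.76, and Dbh a sum of -4.80 and a difference of -0.99 ± 0.90. Adam11 had a sum of -2.67 and a difference of -2.28 ± 0.87. Single libraries moved these differences, that of Dbh to -4.06 without combined replicate 3 and -0.40 without combined replicate 1, and that of Wdr64 to -1.18 without loperamide replicate 2 and -0.20 without loperamide replicate 1. The choice of genes with large combined falls favours negative differences, so they are not tested, and on the scale of log2(FPKM + 1) all 4 turned positive.

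**Figure D3:**
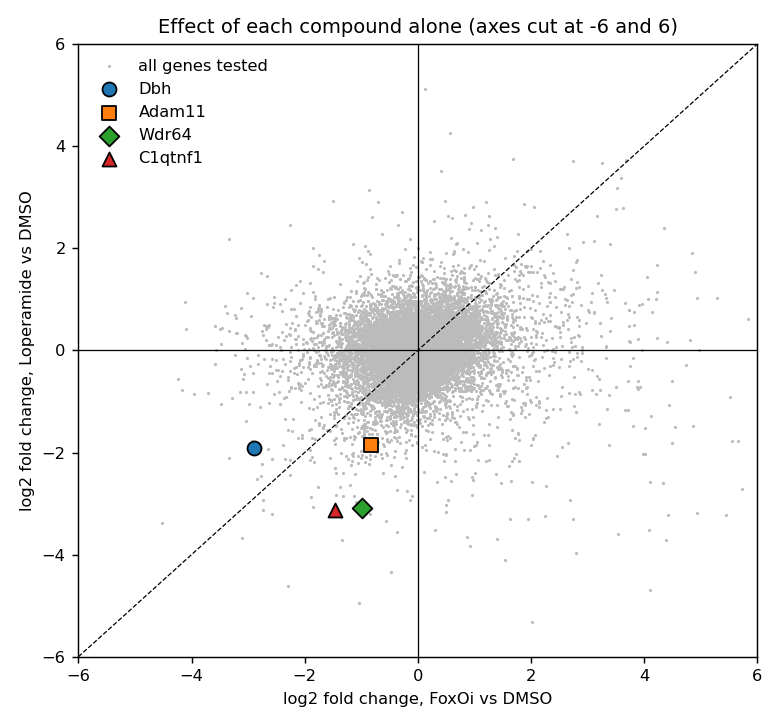
Log2 fold change with FoxOi (horizontal axis) and with loperamide (vertical axis), both against the same DMSO libraries, for all tested genes (grey, axes limited to -6 to 6) and the 4 genes (symbols). All 4 lie in the lower left quadrant, Dbh on the side of the dashed line of equal change where FoxOi lowers more (-2.89 against -1.91) and the other three on the loperamide side.

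A ranking by the combined fall took 2964 called genes that averaged 1 CPM or more over both groups, did not overlap and had an assigned symbol. In it Dbh stood at rank 3, Adam11 at 4, Wdr64 at 5 and C1qtnf1 at 7. The 4 are therefore among the largest falls but are not simply the first 4. Krtap17-1, a keratin-associated protein gene, was at rank 1 (-5.90) and Derl3, which serves degradation of misfolded proteins in the ER, at rank 2 (-5.87). Adamtsl2, a secreted matrix protein gene, fell between Wdr64 and C1qtnf1 (-4.77). Just outside were Gpr3, an orphan receptor gene (-4.68), and Muc4, a membrane mucin gene (-4.62). Gpr3 was also low mainly with loperamide, with summed counts of 239 in DMSO, 218 with FoxOi, 36 with loperamide and 10 with both, while Muc4 was low where FoxOi was present (97, 10, 107 and 4).

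Across the 12 libraries, the levels of the 4 genes as log2(CPM + 1) moved together. Pearson's r was 0.955 for Wdr64 with C1qtnf1, 0.934 for Adam11 with Wdr64 and 0.913 for Adam11 with C1qtnf1. Dbh was less like the other three, with r between 0.793 and 0.820. Libraries of a group share their treatment, so these values mostly describe the order of the 4 groups.

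The genes with the most similar levels over the 12 libraries differed between the 4. For Dbh they were Dgkb, a diacylglycerol kinase gene (r = 0.985), Tgfb2, a TGF-beta ligand gene (r = 0.971), and Derl3 (r = 0.963). Of these Derl3 went from 20.02 to 0.334 CPM with both compounds, a similar share of its DMSO level to that of Dbh, whereas Dgkb kept 3.97 of 21.3 CPM. Like Dbh, Derl3 had its lower single-compound level with FoxOi (log2 fold change against DMSO -3.33 ± 0.21, against -2.10 ± 0.19 for loperamide). The means of Dgkb and Tgfb2 were also lower with FoxOi than with loperamide, by less. The log2 difference between the single compounds was -0.17 ± 0.21 for Dgkb, -0.30 ± 0.29 for Tgfb2 and -1.23 ± 0.23 for Derl3 (SE).

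Adam11 was most similar to Greb1, an oestrogen-responsive gene (r = 0.966), Gsg1l, which encodes an auxiliary subunit of AMPA receptors (r = 0.958), and Ttyh1, which encodes a neural membrane protein (r = 0.955). Their combined log2 fold changes were -2.46 ± 0.31, -3.31 ± 0.40 and -1.85 ± 0.15. Wdr64 was most similar to Fibcd1, a membrane receptor gene for acetylated groups (r = 0.984), Adgra1, an adhesion receptor gene (r = 0.977), and Ckb, the brain-type creatine kinase gene (r = 0.969). Fibcd1 had a combined log2 fold change of -4.09 ± 0.62.

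Few counts alone can lower r, and C1qtnf1, the gene of the 4 with the most counts, had the closest companions. They were Pdia4, a protein disulfide isomerase gene of the ER (r = 0.997), Sdf2l1, an ER chaperone cofactor gene (r = 0.996), and Pycr1, an enzyme gene of proline synthesis (r = 0.991). These 3 were also ranks 1 to 3 when the deposited FPKM was used. The genes named for the other three held less firmly, with FPKM ranks of 12 (Dgkb), 6 (Tgfb2) and 5 (Derl3) for Dbh, 1 (Greb1), 5 (Gsg1l) and 4 (Ttyh1) for Adam11, and 1 (Fibcd1), 3 (Adgra1) and 4 (Ckb) for Wdr64. The 3 companions of C1qtnf1 had combined log2 fold changes of -2.35 ± 0.08 for Pdia4, -3.13 ± 0.11 for Sdf2l1 and -1.83 ± 0.09 for Pycr1. Each was lower with loperamide than with FoxOi, as C1qtnf1 was. Since similarity was measured on all 12 libraries, no test is given for these genes.

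**Figure D4:**
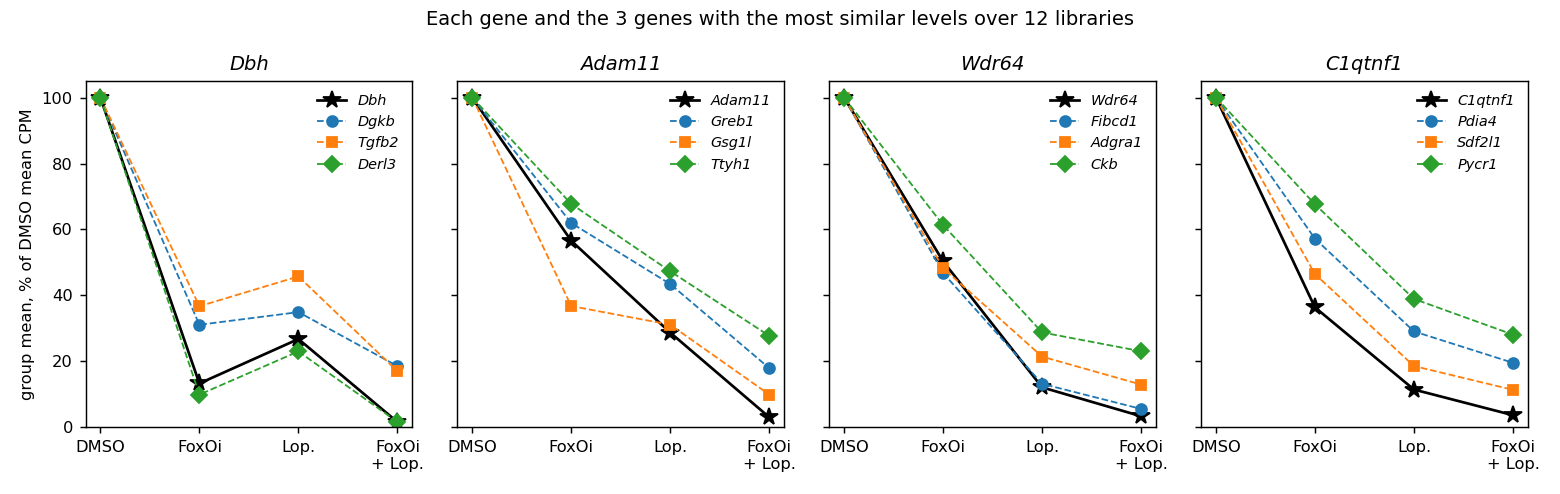
Group mean in percent of the DMSO mean (vertical axis, from 0) in the 4 groups (horizontal axis) for each of the 4 genes (black stars) and the 3 genes most similar to it over the 12 libraries (coloured). Dbh and its 3 companions are lower at FoxOi than at loperamide and lowest with both, with smaller gaps for Dgkb and Tgfb2. The curves for Wdr64 and C1qtnf1 and their companions step down from FoxOi to loperamide to both.

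Around Dbh, 16 of 21 other genes listed for catecholamine synthesis, storage, uptake and breakdown were tested, a list that also holds the related enzyme gene Pam. With both compounds 1 was higher and 6 were lower than in DMSO (edgeR adjusted p under 0.05), the median log2 fold change was -0.01, and over all tested genes 22.3% were higher, 23.2% lower and the median was 0.01. With the replicate block 4 of the 16 were higher and 6 lower. Th, the tyrosine hydroxylase that makes the dopamine precursor, had 104.98 ± 29.4 CPM in DMSO, 15.5 ± 3.56 with FoxOi, 137 ± 15.8 with loperamide and 35.2 ± 4.89 with both (SD, n = 3). Th thus fell with FoxOi (log2 fold change -2.76 ± 0.21, edgeR adjusted p = 4.40e-07) and with both compounds (-1.58 ± 0.20, edgeR adjusted p = 2.88e-05).

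Loperamide alone gave Th a log2 fold change of 0.38 ± 0.19 that did not pass the threshold (edgeR adjusted p = 0.149). With the replicate block it was a rise of 0.40 (edgeR adjusted p = 0.000206). Ddc, which makes dopamine from that precursor, likewise fell with FoxOi (-1.39 ± 0.09, edgeR adjusted p = 2.71e-08) and with both (-1.31 ± 0.09, edgeR adjusted p = 2.85e-08). Its loperamide value was -0.21 ± 0.09 (edgeR adjusted p = 0.0756), and the block called it at -0.21 (edgeR adjusted p = 0.00585). Without DMSO replicate 1 both were called with loperamide, Th at 0.60 (adjusted p = 0.0116) and Ddc at -0.30 (adjusted p = 0.0250), as was Ddc without loperamide replicate 2 (-0.30, adjusted p = 0.0254). The Dbh value with loperamide was -1.91, and its difference from those of both genes upstream of it was not tested.

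A further 3 genes of the list with the strongest calls fell with both compounds. Pam, a copper and ascorbate enzyme of peptide amidation related to Dbh, had a log2 fold change of -1.90 ± 0.13, Gch1, which starts the synthesis of the cofactor of Th, -0.92 ± 0.09, and Cyb561, the granule cytochrome that recycles ascorbate, -0.91 ± 0.10 (edgeR adjusted p = 2.62e-08, 1.46e-06 and 5.48e-06). Pnmt, which would turn noradrenaline into adrenaline, had 0 counts in all 12 libraries. Of the 14 catecholamine receptor genes only Adra2a and Drd4 were tested, and both fell with the combination, as did 23.2% of all tested genes. Adra2a, the receptor through which noradrenaline inhibits insulin release, changed by -0.91 ± 0.15 (edgeR adjusted p = 0.000158) and Drd4, a dopamine receptor, by -2.10 ± 0.66 (edgeR adjusted p = 0.0173). Leaving out DMSO replicate 2 removed the Drd4 call (-2.01, adjusted p = 0.0520), as did leaving out combined replicate 1 (-1.48, adjusted p = 0.0608).

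Markers of sympathetic and chromaffin cells were looked for beside Dbh. Of the 9, Phox2a, Hand2 and Pnmt had no count in any group, and only Th, Ddc and Slc18a1 reached 1 CPM. The summed level of the 9 was 479 to 488 CPM in DMSO, 191 to 200 with FoxOi, 450 to 484 with loperamide and 203 to 210 with both. Most of it came from Ddc and Th, and 2 other markers rose with FoxOi. Slc18a1, a vesicular monoamine transporter gene, went from 31.9 ± 0.631 to 48.1 ± 2.67 CPM (log2 fold change 0.59 ± 0.10, edgeR adjusted p = 0.000230) and Gata3, a transcription factor gene, from 0.174 ± 0.126 to 0.774 ± 0.285 CPM (2.07 ± 0.52, edgeR adjusted p = 0.00541; SD, n = 3). Gata3 was too low to test when some single libraries were left out. The part of these markers in the Dbh result was not tested. In bulk RNA, fewer cells with a transcript and less of it per cell cannot be told apart.

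Of 21 other ADAM genes, 8 were tested, and 0 were called higher and 2 lower with both compounds, beside 22.3% and 23.2% of all tested genes. Their median log2 fold change was -0.37. These 2 were Adam15 (-0.44 ± 0.10, edgeR adjusted p = 0.00234) and Adam22 (-0.40 ± 0.11, edgeR adjusted p = 0.00811). With the replicate block 4 were lower, adding Adam32 (-0.64, edgeR adjusted p = 0.00332) and Adam9 (-0.42, edgeR adjusted p = 8.82e-06). Adam23, the other close relative of Adam11, had a log2 fold change of -0.08 ± 0.09 (edgeR adjusted p = 0.486). Adam22 and Adam23 were at 90.5 ± 8.41 and 25.0 ± 0.27 CPM in DMSO, and Adam11 at 3.28 ± 1.87 CPM (SD, n = 3). CPM is not scaled for gene length, so these values do not rank the genes by abundance.

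All 4 LGI genes, whose proteins bind that group of ADAMs, were tested, and 3 were lower with both compounds, as were 23.2% of all tested genes. Lgi3 changed by -1.93 ± 0.22 (edgeR adjusted p = 4.90e-06), Lgi2 by -0.82 ± 0.16 (edgeR adjusted p = 0.000703) and Lgi1 by -0.72 ± 0.19 (edgeR adjusted p = 0.00621). Lgi4 had a log2 fold change of -0.80 ± 0.40 that did not pass (edgeR adjusted p = 0.122). The single compounds moved the Lgi genes apart. With FoxOi, Lgi2 rose (2.23 ± 0.15, edgeR adjusted p = 5.04e-08). Lgi3 (-0.94 ± 0.20, edgeR adjusted p = 0.00145) and Lgi1 (-0.79 ± 0.19, edgeR adjusted p = 0.00386) fell with it. Over all tested genes 20.7% were higher and 20.3% lower with FoxOi. With loperamide, Lgi1 (0.66 ± 0.18, edgeR adjusted p = 0.0133) and Lgi4 (0.98 ± 0.34, edgeR adjusted p = 0.0391) rose, beside 16.1% of all tested genes. The Lgi1 call with loperamide was lost without DMSO replicate 1 (0.52, edgeR adjusted p = 0.0578), DMSO replicate 2 (0.58, edgeR adjusted p = 0.0644) or loperamide replicate 3 (0.47, edgeR adjusted p = 0.0716).

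Among the relatives of C1qtnf1, 10 of 29 genes with a C1q domain were tested, and 3 were higher and 5 lower with both compounds, beside 22.3% and 23.2% of all tested genes, with a median log2 fold change of -0.54. C1qa, a chain of the complement component C1q, fell by 3.25 on the log2 scale (SE 0.23, edgeR adjusted p = 1.11e-07), from 43.0 ± 10.3 to 4.50 ± 1.19 CPM (SD, n = 3). Its partner chains C1qb and C1qc had 0 and 1 counts in all. Emilin1, an elastic fibre protein gene, fell by 2.49 (SE 0.31, edgeR adjusted p = 1.36e-05). Cbln2, a secreted synapse organizer gene, rose by 3.26 (SE 0.27, edgeR adjusted p = 2.43e-07), and Caprin2 rose by 1.04 (SE 0.13, edgeR adjusted p = 1.86e-05).

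C1qtnf1 is also made by fat, vessel wall and other mesenchymal cells, so their markers were counted. The summed level of 8 mesenchymal markers was 2.57 to 3.52 CPM in DMSO, 1.76 to 2.66 with FoxOi, 3.12 to 4.53 with loperamide and 1.19 to 1.83 with both, with Col3a1 and Lum at 0 in all groups. For 5 endothelial markers it was 0.514 to 1.74, 0.512 to 0.824, 0.719 to 1.21 and 0.305 to 0.544 CPM in the same order. For 5 macrophage markers it was 2.24 to 3.58, 19.0 to 19.47, 1.37 to 1.68 and 4.52 to 5.06 CPM. Most of the level with FoxOi was Cd68 (17.8 ± 0.169 CPM, SD, n = 3), while Ptprc, Adgre1 and Itgam had 2, 1 and 11 summed counts there. From DMSO to both compounds the mean of Cd68 went up from 2.08 to 4.54 CPM and that of Csf1r down from 0.576 to 0.0752 CPM. The mesenchymal and endothelial sums also joined markers that moved differently. From DMSO to both compounds the mean of Col1a1 went from 1.78 to 0.981 CPM and that of Col1a2 from 1.15 to 0.0973 CPM. Pecam1 went from 0.769 to 0.174 CPM. Summed counts of Pdgfrb were 1 in DMSO, 17 with FoxOi and 7 with both, those of Dcn 3, 14 and 7, and those of Pdgfra 4, 14 and 3. The part of these cell types in the C1qtnf1 result was not tested.

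For Wdr64 the background was the 60 other genes named Wdr with a number, of which 52 were tested. With both compounds 14 were higher and 8 lower, beside 22.3% and 23.2% of all tested genes, with a median log2 fold change of 0.05. The 4 with the smallest adjusted p were Wdr62, a spindle pole gene (1.35 ± 0.08), Wdr25 (-1.54 ± 0.10), Wdr90, a centriole and cilium gene (-0.91 ± 0.08), and Wdr81, an endosome gene (1.04 ± 0.10), each called with an edgeR adjusted p of 8.15e-07 or less.

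Position in the genome was not used to choose the genes, so the 3 nearest protein-coding genes on each side of each were examined. Of these 24 neighbours 15 were tested, and with both compounds 3 were higher and 8 lower, beside 22.3% and 23.2% of all tested genes. Their median log2 fold change was -0.30. The replicate block called 1 more as lower, Vav2 (-0.26, edgeR adjusted p = 0.0305). Falls of more than 2 on the log2 scale were found next to Dbh, Wdr64 and C1qtnf1, and neither of the 2 tested genes next to Adam11 was lower.

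Dbh lies in a stretch of chromosome 2 where both tested genes before it were low as well. Fam163b, a neural gene on the opposite strand with its nearer edge 22.7 kb before Dbh, had summed counts of 33 in DMSO, 11 with FoxOi, 8 with loperamide and 2 with both. Adamtsl2, 56.3 kb before Dbh, had 107, 35, 12 and 4. With both compounds Fam163b fell by 3.96 on the log2 scale (SE 0.65, edgeR adjusted p = 0.000171), and Adamtsl2 fell by 4.77 (SE 0.42, edgeR adjusted p = 4.44e-07).

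Each single compound also lowered these neighbours. With FoxOi, Adamtsl2 changed by -1.88 ± 0.28 (edgeR adjusted p = 9.76e-05) and Fam163b by -1.82 ± 0.47 (edgeR adjusted p = 0.00583). With loperamide the changes were -2.87 ± 0.35 for Adamtsl2 (edgeR adjusted p = 2.72e-05) and -1.74 ± 0.51 for Fam163b (edgeR adjusted p = 0.0170). The Fam163b call with loperamide was lost without loperamide replicate 3 (-1.51, adjusted p = 0.0745) and in DESeq2 (-1.78, adjusted p = 0.0503). On the other side of Dbh the falls were smaller or absent. Sardh, a mitochondrial sarcosine dehydrogenase gene 5.19 kb after Dbh, fell by 1.04 with both compounds (SE 0.16, edgeR adjusted p = 0.000108), and Brd3os had a log2 fold change of 0.09 ± 0.13 (edgeR adjusted p = 0.578).

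Of the 4 tested neighbours of Wdr64, 3 were lower with loperamide and 0 higher, beside 15.8% of all tested genes lower, and Pld5 did not pass (-0.05, edgeR adjusted p = 0.77). Opn3, an opsin gene on the opposite strand, has its nearer edge 5.82 kb before Wdr64. It had 45.8 ± 15.6 CPM in DMSO, 49.7 ± 6.99 with FoxOi, 8.79 ± 1.89 with loperamide and 6.10 ± 1.64 with both (SD, n = 3). It fell with loperamide (-2.39 ± 0.26, edgeR adjusted p = 2.94e-05) and with both (-2.90 ± 0.27, edgeR adjusted p = 2.51e-06). Unlike Wdr64, Opn3 was not lower with FoxOi, where its mean stood within the DMSO spread.

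Chml, which encodes an escort protein for Rab GTPases, overlaps Opn3 on the same strand, so reads of these 2 genes may have been split between them. It rose with FoxOi (1.04 ± 0.17, edgeR adjusted p = 0.000271), fell with loperamide (-1.03 ± 0.18, edgeR adjusted p = 0.000763) and was lower with both (-0.58 ± 0.18, edgeR adjusted p = 0.0167). All 4 tested neighbours of Wdr64 were higher with FoxOi than with loperamide, as Wdr64 was, where 25.5% of all tested genes were higher. These were Opn3 (2.503 ± 0.26), Chml (2.07 ± 0.18), Pld5 (1.11 ± 0.11) and the DNA repair exonuclease gene Exo1 (1.01 ± 0.11), with edgeR adjusted p values of 6.99e-06 or less.

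Near Adam11 only Ccdc43 and the splicing factor gene Eftud2 were tested, and both were slightly higher with both compounds (0.33 ± 0.09, edgeR adjusted p = 0.00968, and 0.19 ± 0.07, edgeR adjusted p = 0.0382). Over all tested genes 22.3% were higher in that comparison. Near C1qtnf1 the low-count gene Rbfox3, a neuronal splicing factor gene 39.8 kb after it, fell with both compounds (-2.41 ± 0.62, edgeR adjusted p = 0.00564). Its summed counts were 35 in DMSO, 11 with FoxOi, 39 with loperamide and 7 with both, so it was low only in the groups with FoxOi. Engase (-0.51 ± 0.16, edgeR adjusted p = 0.0168) and Lgals3bp (-0.30 ± 0.11, edgeR adjusted p = 0.0298) were lower by less. Cant1, the nearest gene to C1qtnf1 at 9.12 kb, had a log2 fold change of -0.13 ± 0.08 (edgeR adjusted p = 0.183).

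Several of these small calls rest on single libraries. The Eftud2 call was lost without any 1 of the DMSO or combined libraries or FoxOi replicate 1 (adjusted p from 0.0507 to 0.102). The combined Chml value was -0.33 without DMSO replicate 3 (adjusted p = 0.0642) and -0.50 without combined replicate 1 (adjusted p = 0.0629). Lgals3bp was at -0.20 without DMSO replicate 1 (adjusted p = 0.135) and at -0.22 without combined replicate 2 (adjusted p = 0.143). Engase was at -0.41 without DMSO replicate 2 (adjusted p = 0.0934) and at -0.40 without combined replicate 3 (adjusted p = 0.0768). Vav2 was called without DMSO replicate 3 (-0.37, adjusted p = 0.0218), and Ccdc43 lost its call without DMSO replicate 2 (0.31, adjusted p = 0.05003). The calls with both compounds were kept without each single library for Adamtsl2, Fam163b, Sardh, Opn3 and Rbfox3, which fell, and for Exo1, which rose (0.44 ± 0.11, edgeR adjusted p = 0.00388). Rbfox3 lost its call on log2(FPKM + 1) (-0.16, limma adjusted p = 0.0673) and on log2(FPKM + 0.1) with no filter (-0.96, limma adjusted p = 0.0511).

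**Figure D5:**
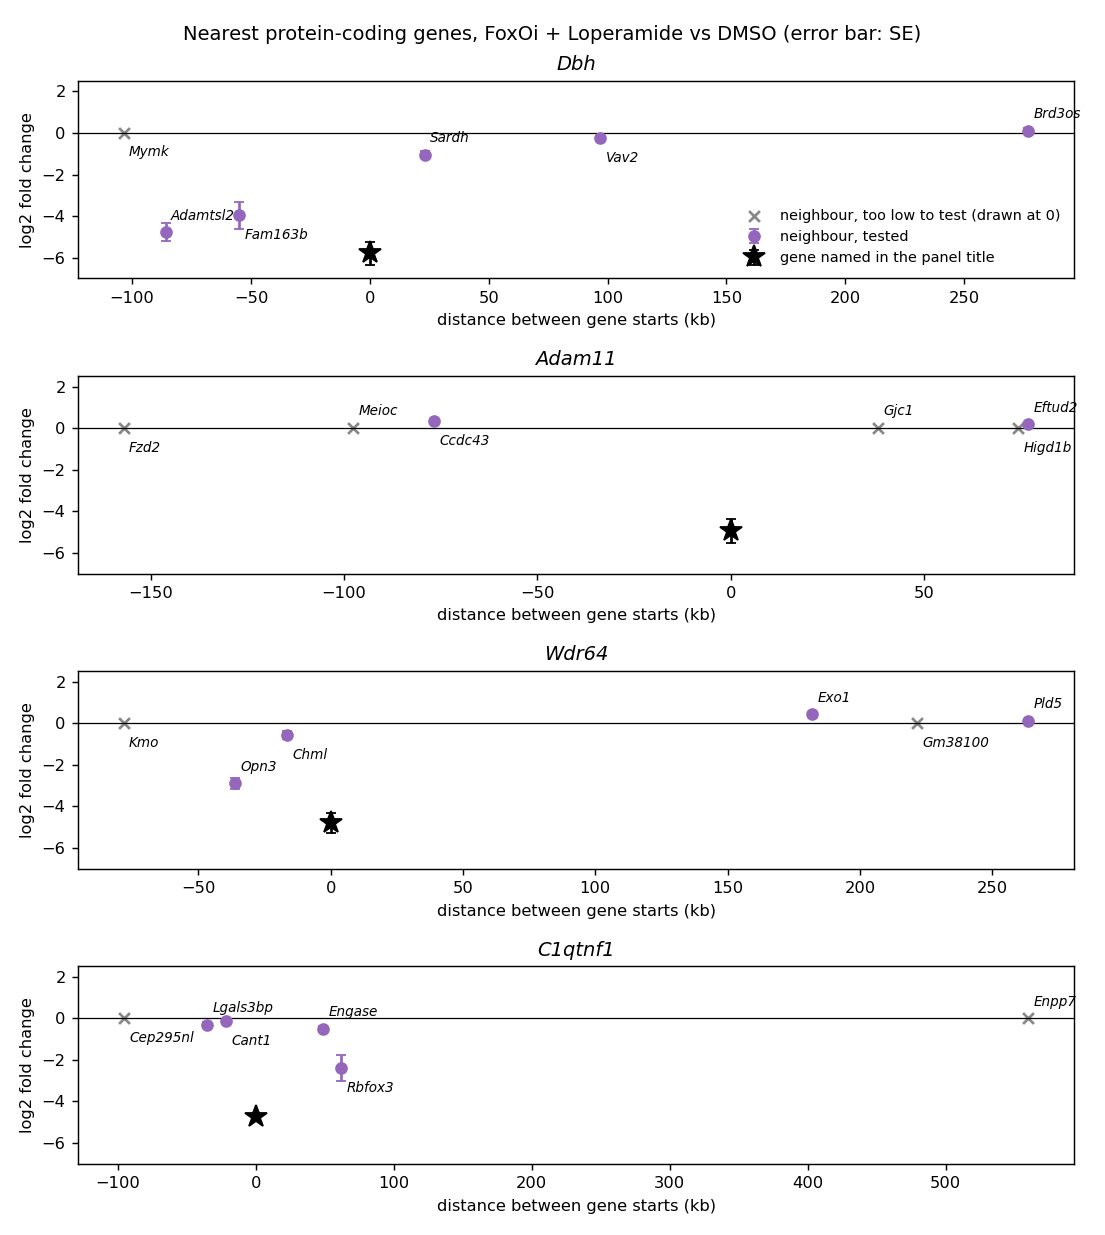
Log2 fold change with both compounds against DMSO (vertical axis, SE bars) of each of the 4 genes and its 3 nearest protein-coding genes on each side. Stars at 0 kb mark the 4 genes and circles the neighbours, with grey crosses drawn at 0 where counts were too low to test. The horizontal axis, labelled as distance between gene starts, gives the distance in kb between lower coordinates, whatever the strand. Adamtsl2 and Fam163b lie low beside Dbh (-4.77 and -3.96) and Opn3 beside Wdr64 (-2.90), while the tested genes around Adam11 stay at 0.33 or less.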

How the data were processed

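The 12 libraries were prepared as stranded mRNA libraries after DNase digestion and sequenced in single reads of 50 bases, per the labels' protocols. The authors deposited a raw count table and an FPKM table. Tools and builds listed in the submitters' processing notes are DESeq2, Picard 2.19.2, STAR 2.7.5a, GRCm38 and mm10. How reads were counted, and whether by strand, is not given in the sources consulted. On 13180 genes, the deposited FPKM matched counts scaled by length and by factors within 0.226% of DESeq2 size factors.

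The tests used edgeR 4.0.16 (R 4.3.3): filterByExpr by group (minimum count 10, minimum total 15), TMM, and a robust quasi-likelihood fit to all 12 libraries by group alone. Fold changes had a prior count of 0.125. Each SE is the size of the log2 fold change over the root of its F statistic. Genes were called at a threshold of 0.05 after Benjamini-Hochberg adjustment across the 16808 genes. Alternatives were DESeq2 1.42.0, limma 3.58.1 on log2(FPKM + 0.1) and log2(FPKM + 1), no filter, only the 2 groups compared, a prior count of 2, a replicate block, and leaving out each library. In data simulated for FoxOi against loperamide, the fit found 31 of the 67 genes set to 1.5-fold, 57 of the 67 set to 2-fold and 60 of the 66 set to 4-fold. It made 7 false calls in 16258 unchanged genes. The simulated counts used the spread estimated by the fit and held no effect of the replicate number. Few genes were changed, up and down alike, whereas 49.6% of tested genes were called in the real comparison. The simulation therefore checks the fit in a simpler setting and gives no error rate for these data.

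The genes and lists were chosen with earlier results of these data known. The naming rule took the 4 genes, up to 4 genes with the smallest combined adjusted p per list, direct partners (Th, Ddc, Pnmt, Adam22, Adam23, Lgi genes), 3 neighbours a side, the 3 most correlated genes, and adjacent ranks. C1qb and C1qc were added after their values were seen. An adjacent rank and a sympathetic and chromaffin marker are not reported here. Libraries with the same label number also share a code (118, 178 or 68), whose meaning the labels do not give. Deviations from group means correlated by 0.124 to 0.651 in all 18 same-numbered pairs, each highest with its own number. The numbers were therefore taken as pairs in the replicate block, but the main fit did not use this pairing. Within groups, libraries varied 5.34 to 33.6 times more than counting error allows. Intervals and floors (3 counts) cover counting error only, since reads carry no molecular tags.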

Additional observations from a re-analysis of the deposited data

Results flagged for a closer look

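Among 55 named and tested genes, the effect of loperamide with the inhibitor differed from its effect without it for 8 (interaction term, edgeR adjusted p under 0.05), beside 9.48% of all tested genes. For Dbh, Adam11, Wdr64 and C1qtnf1 this difference was not tested, because the choice of genes used it. Most of the 8 were named for a small combined p or a large combined fall, so their choice used the combined libraries as well. The p-values of those genes are therefore a description and no independent test. Pld5 was named for its position only.

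Loperamide lowered Pam, Gch1, Lgi2, Pld5 and Gpr3 more with the inhibitor than without it. The difference in log2 effect was -0.72 for Pam (edgeR adjusted p = 0.0164), -0.80 for Gch1 (0.00110), -2.70 for Lgi2 (1.17e-05), -0.91 for Pld5 (0.00138) and -1.81 for Gpr3 (0.04999). For Lgi2 the effect was -3.05 with the inhibitor and -0.34 without, and for Pld5 it was -0.96 and -0.05.

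The effect on Adam32 turned from -1.55 without the inhibitor to 1.25 with it, a difference of 2.79 (edgeR adjusted p = 0.00134). Caprin2 rose more with the inhibitor (difference 0.72, edgeR adjusted p = 0.0295), and Wdr81 rose less (difference -0.64, edgeR adjusted p = 0.00714).

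Of these 8 differences, those of Gch1, Adam32, Lgi2, Pld5 and Wdr81 stayed called whichever single library was left out. Pam lost its call without DMSO replicate 2 (-0.67, edgeR adjusted p = 0.0601), FoxOi replicate 2 (-0.66, 0.0501) or loperamide replicate 3 (-0.61, 0.0505). Caprin2 lost it without any 1 of 6 libraries, namely DMSO replicate 2 (0.70, edgeR adjusted p = 0.0744), FoxOi replicates 2 (0.67, 0.0720) and 3 (0.68, 0.0689), loperamide replicates 1 (0.73, 0.0554) and 3 (0.65, 0.0812) and combined replicate 2 (0.60, 0.0782). Gpr3 lost it without any 1 of 10 of the 12 libraries, with values from -1.89 to -1.33 in those fits. It was not called with DESeq2 size factors (-1.79, edgeR adjusted p = 0.0516) or on log2(FPKM + 0.1) (-0.94, limma adjusted p = 0.169) or log2(FPKM + 1) (-0.049, limma adjusted p = 0.885).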

How the results depend on the processing

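With the replicate block, genes called numbered 8179 rather than 5370 for loperamide against DMSO and 7504 rather than 4465 for both against FoxOi. Wdr64 and C1qtnf1 stayed called for FoxOi against loperamide in every alternative. The Dbh difference (-0.99) was called with the block (-1.0005), with only the 2 groups (-0.9993, adjusted p = 0.0333) and on log2(FPKM + 0.1) (-0.73, limma adjusted p = 0.0493). The Adam11 difference (1.02) was called with no filter (1.02, adjusted p = 0.00827), the block (1.03) and only the 2 groups (1.01, adjusted p = 0.0258). Leaving out single libraries moved it from 0.75 to 1.47, with calls without DMSO replicate 1 (1.01, adjusted p = 0.0192) and loperamide replicate 1 (1.47, adjusted p = 0.0311).

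The combined change minus the sum of the single changes turned positive on log2(FPKM + 0.1), with and without a filter, for Dbh (0.35), Wdr64 (0.12) and C1qtnf1 (0.032). On log2(FPKM + 1) it was 0.58 for Dbh, 0.037 for Adam11, 0.30 for Wdr64 and 0.59 for C1qtnf1, and with a prior count of 2 it was 0.056 for Dbh. Pseudocounts pull low levels together, so combined falls of low genes shrank: Dbh to -4.36 with a prior count of 2, to -3.64 on log2(FPKM + 0.1) and to -1.23 on log2(FPKM + 1), while without combined replicate 3 its fitted value was -8.86. With 3 to 8 counts left in Dbh, Adam11 and Wdr64, the size of their combined fall is limited by depth. The block changed no other call among the named comparisons recomputed than those given beside them. The alternatives for single genes other than Dbh, Adam11, Wdr64 and C1qtnf1, and those for the combined change minus the sum, were chosen after seeing the data.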
